A study of Mus musculus with 2 samples.

Results

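The pyruvate dehydrogenase (PDH) genes described here are 10 genes of mouse liver, namely 4 PDH kinases (Pdk1 to Pdk4), 2 PDH phosphatases (Pdp1 and Pdp2) and 4 subunits of the complex (Pdha1, Pdhb, Dlat and Dld), of 18193 genes with a probe set on the array. The genes were chosen by function, with Pdk4 known from these same arrays to have the largest positive difference of all measured genes, so the differences between the diets are a description and carry no test. A member probe set is a set of array probes whose annotation gives a single gene symbol, and 19 of them belonged to the 10 genes. The livers came from male C57BL/6J mice, an inbred strain, wild-type in both groups. The calorie-restricted (CR) mice had 20% less food in the first week and 40% less in the 11 weeks after it, and the ad libitum (AL) mice ate freely over the same 12 weeks. Both diets started at 8 weeks of age, the mice were housed singly, and the livers are labelled as 5 months old. RNA of 3 mice per diet was mixed in equal amounts and put on 1 array per diet, so the spread between mice is not in the data and each value compares these 2 pools.

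The PDH complex sits in the mitochondrial matrix and turns pyruvate into acetyl-CoA, the step that commits carbon from glucose to oxidation or to fat. PDH kinases phosphorylate the E1 alpha subunit and switch the complex off, and PDH phosphatases remove the phosphate and switch it on again. In liver the balance is known to move with feeding: in the fasted state the kinases keep pyruvate for glucose production while fatty acids supply the acetyl-CoA.

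The stretches of DNA around the starts of the 4 genes that differed by 2-fold or more are shown because these are the members that moved most, in both directions. They run from 250 bases before to 50 bases after the start in RefSeq (GRCm38.p6), and promoters of 9 of the 10 members were in the table, with Pdp1 the gene without one. The Pdk4 stretch is chr6:5496229-5496528 (minus strand), that of Pdk1 chr2:71872974-71873273 (plus strand), that of Pdp2 chr8:104591222-104591521 (plus strand) and that of Dld chr12:31351422-31351721 (minus strand). Capitals mark matches, on either strand, to AGGTCA (the half-site of nuclear receptors such as PPAR alpha), TGTTTAC (forkhead box O factors), AGAACA (half-site of the glucocorticoid receptor), CCAAT (bound by NF-Y, here called the CCAAT box), GGGCGG (the GC box) and CACGTG (the E-box).
Pdk4: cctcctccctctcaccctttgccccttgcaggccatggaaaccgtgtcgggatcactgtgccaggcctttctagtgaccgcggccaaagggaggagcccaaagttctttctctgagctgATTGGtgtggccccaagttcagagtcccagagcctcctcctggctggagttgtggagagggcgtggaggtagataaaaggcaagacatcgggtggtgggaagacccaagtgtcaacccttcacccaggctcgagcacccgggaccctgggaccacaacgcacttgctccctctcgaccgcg
Pdk1: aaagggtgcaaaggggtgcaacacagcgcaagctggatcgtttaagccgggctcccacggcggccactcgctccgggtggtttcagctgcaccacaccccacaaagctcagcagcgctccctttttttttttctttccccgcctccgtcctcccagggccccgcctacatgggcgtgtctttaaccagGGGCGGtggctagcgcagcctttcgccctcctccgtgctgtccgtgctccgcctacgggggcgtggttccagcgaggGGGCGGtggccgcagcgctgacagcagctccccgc
Pdp2: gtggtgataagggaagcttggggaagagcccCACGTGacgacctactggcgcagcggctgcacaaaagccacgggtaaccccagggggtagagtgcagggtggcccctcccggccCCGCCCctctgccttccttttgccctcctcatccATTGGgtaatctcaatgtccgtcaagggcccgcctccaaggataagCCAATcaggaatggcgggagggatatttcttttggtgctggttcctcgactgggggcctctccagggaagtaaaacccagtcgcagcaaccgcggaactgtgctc
Dld: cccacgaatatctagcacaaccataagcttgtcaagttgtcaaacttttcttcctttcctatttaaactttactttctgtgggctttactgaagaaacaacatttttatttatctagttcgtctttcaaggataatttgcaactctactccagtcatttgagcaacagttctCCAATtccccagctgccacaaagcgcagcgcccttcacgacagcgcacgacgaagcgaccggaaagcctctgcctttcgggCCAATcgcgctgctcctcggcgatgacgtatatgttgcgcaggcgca

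None of these 4 stretches held the nuclear receptor half-site, the forkhead motif or the glucocorticoid half-site, which occur in 16.3%, 3.65% and 19.0% of 32851 mouse promoters of the same length. The Pdk4 stretch had 1 match, a CCAAT box 131 bases before the start, a motif found in 37.4% of all promoters. Pdk1 had 2 GC boxes (35.7% of promoters), and its second listed start, not shown, had 2 matches to AGAACA and no other. Pdp2 had 2 CCAAT boxes, 1 GC box and 1 E-box (7.15% of promoters), and Dld had 2 CCAAT boxes. No matches overlapped in the printed stretches. A match describes the letters only, and the absence of one says nothing about sites outside these windows.

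Intensities are the authors' RMA values on a linear scale, and a difference is log2 CR minus log2 AL, so that 1 stands for 2-fold. A gene was measured if it reached an intensity of 7.38, the median of all values, on at least 1 array, and it is represented by its brightest probe set. Probe sets differ in how strongly they bind, so levels are compared between diets and not between genes. Of the 10 members, 8 were measured. Pdk3 and Pdp1 stayed below the limit on both arrays. Among measured genes the central 95% of differences ran from -1.04 to 0.89, around a median of -0.02. Precision is limited by having 1 array per diet. A shift of the arrays to level the hybridisation control spikes would lower every difference by 1.04, or by 0.36 on the cre spikes alone, so that positive differences smaller than these turn negative there, and all differences are relative to the typical gene. On both arrays the 3' probe sets of the control genes far exceeded the 5' ones. The 3' to 5' ratio of beta-actin was 89.7 in CR and 83.5 in AL, and that of Gapdh 53.2 in CR and 46.9 in AL. The 3' to middle ratio differed more between the pools, with 20.4 in CR and 11.1 in AL for beta-actin and 6.04 in CR and 4.46 in AL for Gapdh. The part of this bias in the member values was not tested.

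Pdk4, and less so Pdk1 and Pdp2, were higher in the CR pool, Dld was lower, and the other measured members lay within 2-fold. Of the 8 measured members, 3 were at least 2-fold higher in CR (Pdk4, Pdk1 and Pdp2), against 1.80% of 12644 measured genes, and 1 was at least 2-fold lower (Dld), against 2.79%. By probe set, 14 of the 19 were measured, of which 3 were at least 2-fold higher and 1 lower, against 1.99% and 2.97% of 20316 measured probe sets. The other 10 measured probe sets lay within 2-fold, and all 14 exceeded the limit in both pools. Since the members were chosen with these arrays known, nothing is read from the shares.

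**Figure D1:**
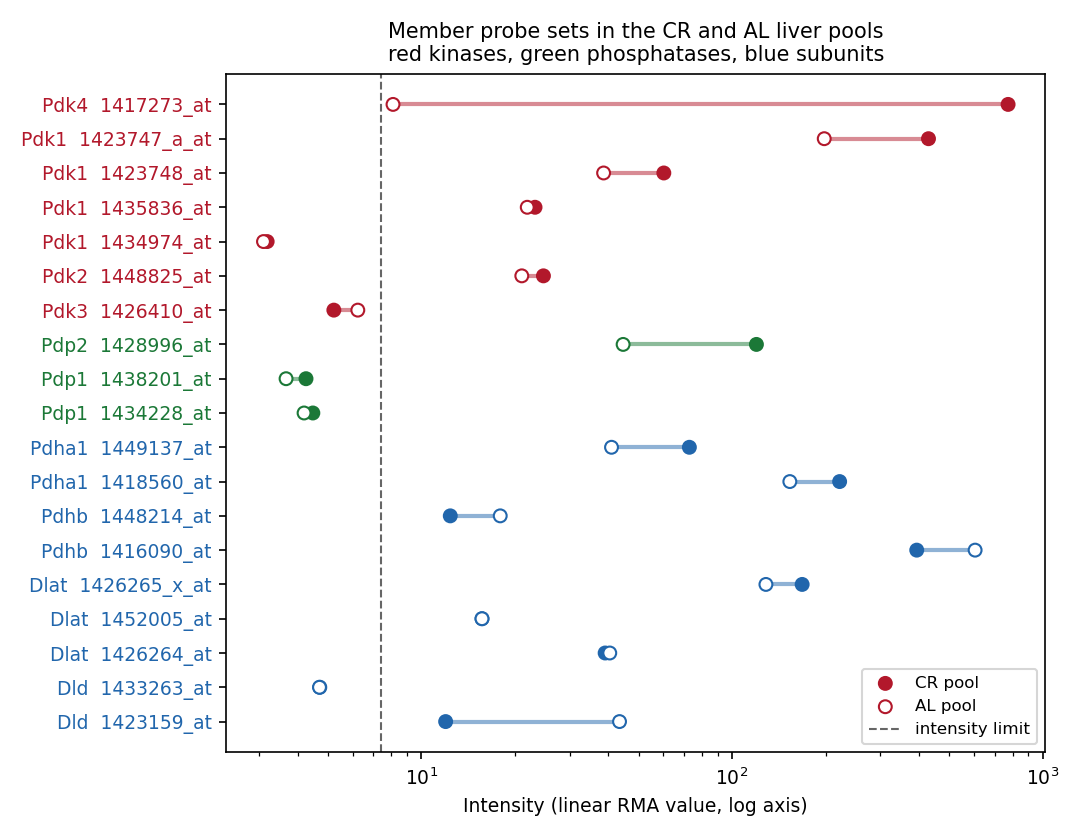
Intensity of each of the 19 member probe sets (rows, with the probe set name) on a log axis, filled points for the CR pool and open points for the AL pool, 1 array each. The Pdk4 line is by far the longest, between 774 in CR and 8.10 in AL, while the Pdk3 and Pdp1 points lie left of the dashed intensity limit of 7.38 in both pools.

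Pdk4 is a kinase isoform known to be induced by fasting in liver. Its only probe set (1417273_at) had an intensity of 774 in the CR pool and 8.10 in the AL pool. The CR value was brighter than 98.1% of all probe sets on that array, and the AL value brighter than 53.5%, which is 1.10 times the intensity limit. The AL pool thus lay at the edge of the measured range and the CR pool far inside it. The difference was 6.58, or 95.6-fold, and 6.60 relative to the median measured gene. With the AL value raised to the upper quartile of all values, 21.0, the fold was still 36.9. No measured gene had a larger positive difference. The next 3 genes in that order were the cytochrome P450 gene Cyp2b9 at 5.97, the acyl-CoA thioesterase gene Acot3 at 4.41 and the glycogen-targeting phosphatase subunit gene Ppp1r3g at 4.37 (AL value of 5.62, below the limit). Cyp2b9 and Acot3 have close paralogs whose transcripts the probes may pick up.

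Pdk1, the kinase isoform best known as a target of the hypoxia factor HIF-1, had 4 probe sets that did not give the same size of difference. The brightest (1423747_a_at) had 429 in CR and 198 in AL, a difference of 1.12, or 2.17-fold. The second (1423748_at) had 60.3 in CR and 38.6 in AL, a difference of 0.64, although both carry the same sequence accession in the annotation. The third (1435836_at) had 23.2 in CR and 21.9 in AL, a difference of 0.08, and the last (1434974_at) was at 3.19 in CR and 3.10 in AL, below the limit. All 3 measured probe sets were thus higher in CR, but 1 alone passed 2-fold, and it is of a type (_a_at) that can match several transcripts of a gene. The mean over all 4 probe sets was 0.47, within 2-fold, and the brightest was within 2-fold on either spike scaling too (0.075 and 0.75), which lowers every gene alike and leaves it 1.14 above the median measured gene. Only 163 measured genes (1.29%) had a larger positive difference than its 1.12.

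Pdk2, the isoform most widespread across tissues, had 24.7 in CR and 21.0 in AL, a difference of 0.23. It lay well within the central 95% of genes, and 24.6% of measured genes stood higher. Relative to the median measured gene it stood at 0.25, a value that a common shift of an array leaves as it is. Pdk3, a kinase known mainly from testis, kidney and brain, had 5.22 in CR and 6.24 in AL, both below the limit, so no fold is given. Among the 4 kinases Pdk4 therefore stood 5.46 log2 units above Pdk1 and 6.35 above Pdk2 in its difference.

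The phosphatase Pdp2, the isoform known as responsive to insulin, was higher in the CR pool. It had 119.8 in CR and 44.6 in AL on its only probe set (1428996_at), a difference of 1.43, or 2.69-fold, with 87 measured genes (0.69%) higher. Both values lay far above the intensity limit. Pdp1, the calcium-stimulated phosphatase abundant in muscle, had 4.47 in CR and 4.19 in AL on one probe set and 4.25 in CR and 3.67 in AL on the other, all below the limit. The Pdk4 difference exceeded that of Pdp2 by 5.15. On its brightest probe set the Pdk1 difference fell short of that of Pdp2 by 0.31 (Pdk1 minus Pdp2, -0.31). The median SD between probe sets of 1 gene was 0.29, which is not a spread of gaps between genes. The measured Pdk1 probe sets had an SD of 0.52, and the dimmer ones, at 0.64 and 0.08, fell further short of Pdp2.

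**Figure D2:**
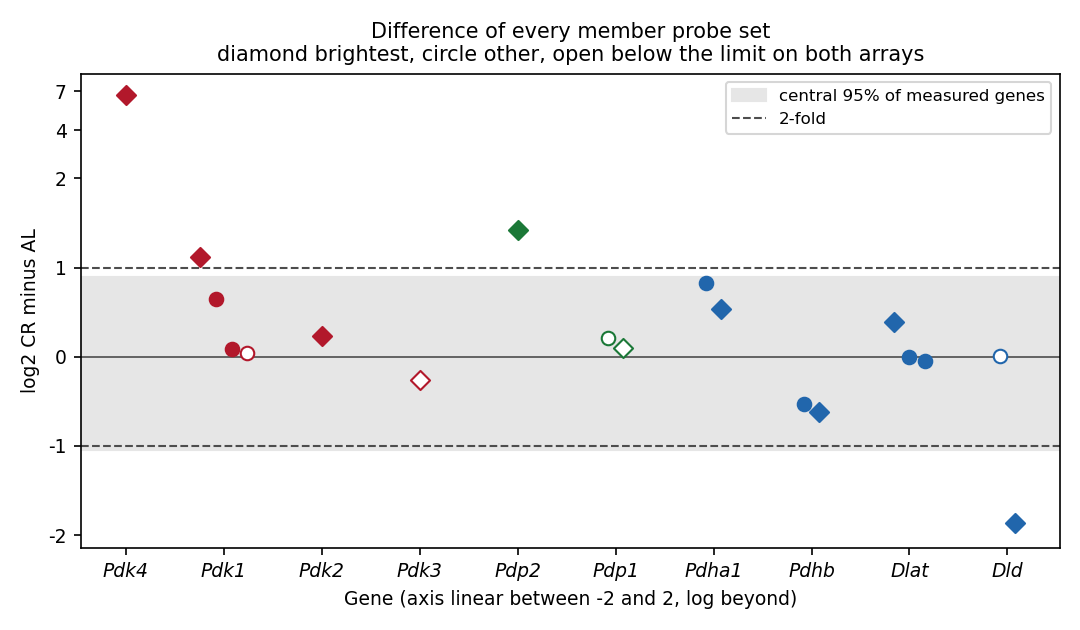
The log2 difference, CR minus AL, of every member probe set, by gene, with diamonds for the brightest probe set, circles for the others and open symbols for probe sets below the limit on both arrays. Pdk4 at 6.58, Pdp2 at 1.43 and Dld at -1.86 lie outside the shaded central 95% of measured genes, and of the Pdk1 probe sets the brightest alone, at 1.12.

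The subunits did not move together. Pdha1, the E1 alpha subunit that the kinases phosphorylate, had 222 in CR and 153 in AL on its brightest probe set, a difference of 0.53. Its other probe set had 72.9 in CR and 40.9 in AL, a difference of 0.83. Both were higher in CR and neither reached 2-fold. Relative to the median measured gene the brightest stood at 0.55. Pdhb, the E1 beta subunit that pairs with Pdha1, went the other way on both probe sets. Its brighter probe set had 393 in CR and 606 in AL, a difference of -0.62. The dimmer one had 12.4 in CR and 17.9 in AL, a difference of -0.53. The 2 Pdhb probe sets carry the same accession and had an SD of 0.06. The E1 partners thus differed by 1.16 in their differences (Pdhb minus Pdha1, -1.16), a gap that a common shift of an array leaves as it is.

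Dlat, the E2 subunit that carries the acetyl group on lipoic acid, lay close to the AL level, with probe sets on both sides of 0. Its brightest probe set (1426265_x_at) is of a type that can also match transcripts of other genes. It had 168 in CR and 129 in AL, a difference of 0.39. The second had 39.0 in CR and 40.4 in AL, a difference of -0.05. The third (1452005_at) had 15.7 in both pools and a difference of exactly 0, as did 348 single-symbol probe sets in all. All 3 carry the same accession, and none reached 2-fold.

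Dld, the E3 dihydrolipoamide dehydrogenase, was the subunit lower in the CR pool by more than 2-fold. It is shared with the complexes for 2-oxoglutarate and branched-chain keto acids and with the glycine cleavage system. Its brighter probe set (1423159_at) had 12.0 in CR and 43.4 in AL, a difference of -1.86, or 3.63-fold lower in CR, and 53 measured genes (0.42%) stood lower. The CR value was near the limit of 7.38. The other probe set (1433263_at) had 4.71 in CR and 4.70 in AL, below the limit on both arrays, so the value rests on 1 probe set (the mean of both is -0.93, within 2-fold), and that probe set has no sequence accession in the annotation used. Among measured genes of similar brightness (mean intensity from 12.0 to 26.7), 2.59% were at least 2-fold lower.

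**Figure D3:**
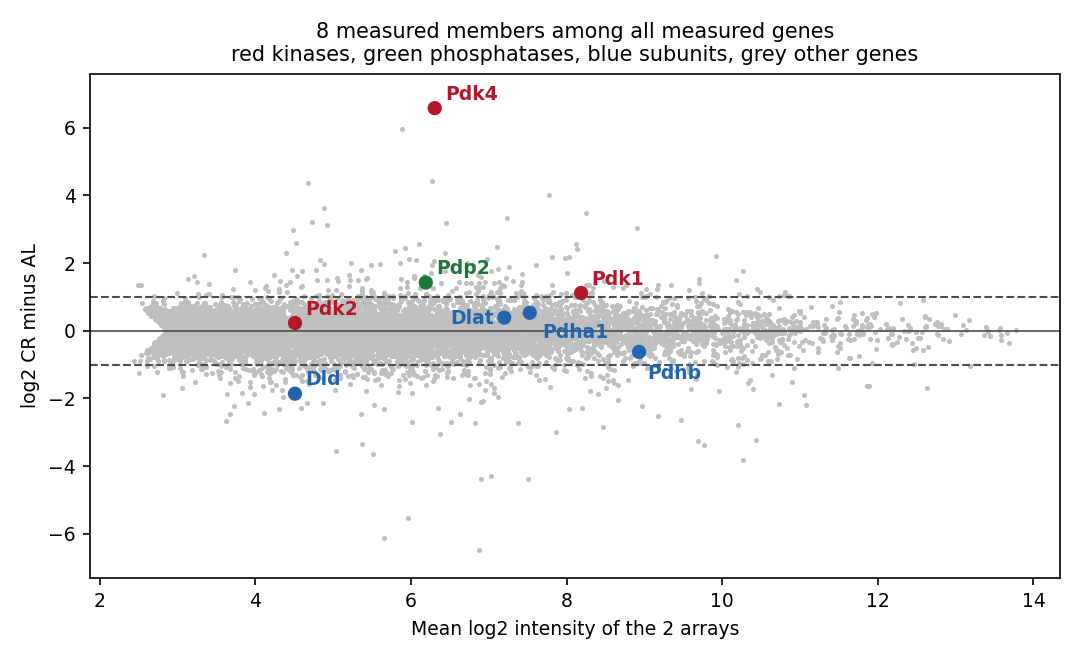
Log2 difference, CR minus AL, against the mean log2 intensity of the 2 arrays for 12644 measured genes (grey), with the 8 measured members named and dashed lines at 2-fold. Pdk4 is the highest point, Pdp2 and Pdk1 lie above the upper line, Dld lies below the lower line, and Pdk2, Pdha1, Dlat and Pdhb lie between the lines.

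By class, the measured kinases had a median difference of 1.12 over 3 genes and the subunits one of -0.12 over 4 genes, with Pdp2 as the single measured phosphatase at 1.43. The median over all measured genes was -0.02. With every member counted and no intensity limit, the medians were 0.67 over 4 kinases, 0.76 over 2 phosphatases and -0.12 over 4 subunits. Over all 18193 genes without the limit the median was -0.002. With so few genes a median rests on 1 or 2 of them, and the classes overlap: Pdk2 at 0.23 lay below Pdha1 at 0.53 and Dlat at 0.39.

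Partners of the complex outside the 10 members lay in both directions. Of 6 listed partners 4 were measured, 1 of them at least 2-fold higher in CR (1.80% of all measured genes), and their median was -0.17. Pdhx, the E3-binding protein that docks Dld to the core, had 14.7 in CR and 22.4 in AL, a difference of -0.61. Pdpr, the regulatory subunit of PDH phosphatase, had 284 in CR and 104 in AL on its brightest probe set, a difference of 1.45, but that probe set is of the _x_at type and the other 2 measured ones gave 0.68 and -0.37. Lipt1, a lipoyl transferase that helps load lipoic acid onto E2 subunits, stood at -0.54 and Lias, the lipoic acid synthase, at 0.19 (other probe set -0.38).

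Of 15 measured genes of pyruvate supply and use, 1 was at least 2-fold higher in CR and none was lower, beside 1.80% and 2.79% of all measured genes, and the median was -0.04. The one was Slc16a7, a monocarboxylate transporter with high affinity for pyruvate, with 383 in CR and 99.5 in AL, a difference of 1.94 on its only probe set. Ldha, a lactate dehydrogenase subunit, stood at -0.80 and Gpt, an alanine aminotransferase, at 0.77 (other probe set 0.13). Pck1 at -0.01 and Ldhb at -0.10 were within 2-fold on their brightest probe sets. Each had another measured probe set past 2-fold, at 1.36 and 1.29. The pyruvate carrier subunit gene Mpc1 had 167 in CR and 165 in AL, and pyruvate carboxylase, Pcx, 104 in both pools, differences of 0.02 and 0.01. Of 16 measured tricarboxylic acid cycle genes none reached 2-fold, as was so for most genes on the arrays, and their median was 0.04. The isocitrate dehydrogenase genes Idh2 at 0.95 and Idh3a at -0.80 (probe sets up to 0.45) were the farthest from 0, followed by the succinyl-CoA ligase subunit gene Suclg1 at -0.44.

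The sister complexes use the same E3 or the same chemistry as PDH. Of 10 measured genes of these complexes none reached 2-fold, again as for most genes, and their median was 0.06. Bckdk, the kinase of branched-chain keto acid dehydrogenase and the nearest relative of the PDH kinases, had 27.2 in CR and 24.0 in AL, a difference of 0.18 (other probe set -0.38). Its opposing phosphatase Ppm1k stood at 0.31, with another probe set at 1.27. The E2 subunit gene Dbt at 0.58, the glycine decarboxylase gene Gldc at -0.44 and the oxoadipate dehydrogenase gene Dhtkd1 at 0.44 were the farthest from 0.

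**Figure D4:**
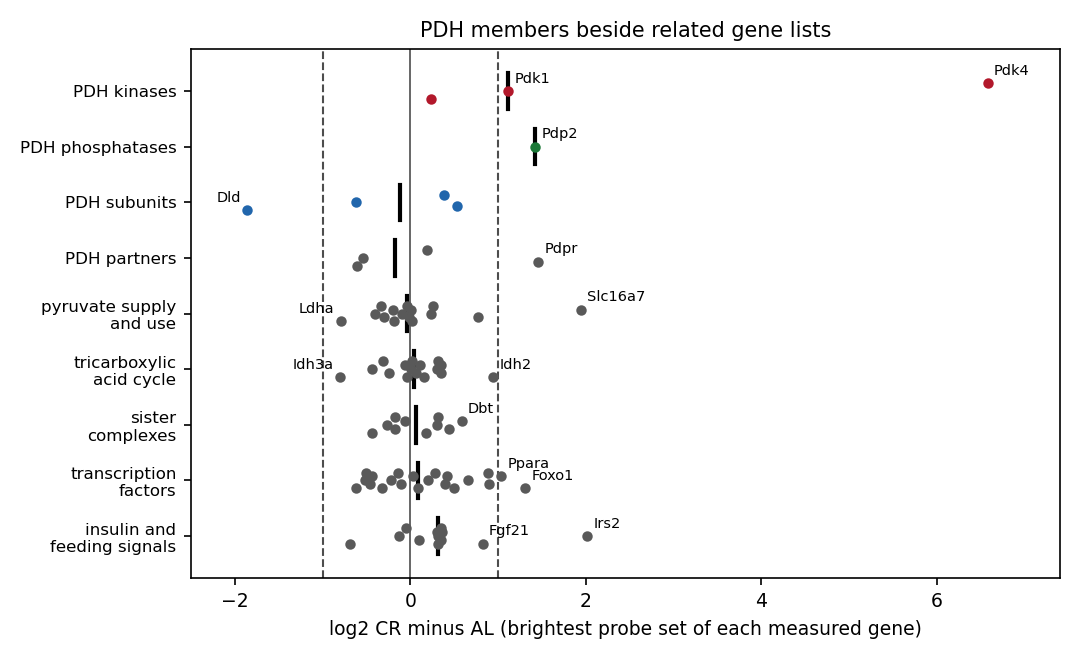
Log2 difference, CR minus AL, of each measured gene (points, brightest probe set) in the 3 member classes and 6 related lists, with black bars at the list medians and dashed lines at 2-fold. Pdk4 stands far to the right at 6.58, while every tricarboxylic acid cycle and sister complex gene lies between the lines.

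Transcription factors and cofactors listed around Pdk4, not each of them known to act on it, lay in both directions. Among the 21 in the measured range, 2 passed 2-fold upward in CR (1.80% of all measured genes were) and none was lower (2.79%), and the list median was 0.09. Foxo1, a forkhead factor restrained by insulin, had 610.0 in CR and 246 in AL, a difference of 1.31. That probe set is of the _s_at type, and the 2 other measured ones gave 0.48 and 0.51. Ppara, the fatty acid receptor that drives fasting genes in liver, had 390.3 in CR and 190.5 in AL, a difference of 1.04, with its other probe sets at 1.14 and 1.48. The coactivator gene Ppargc1b stood at 0.89. Ppargc1a, another coactivator gene, stood at 0.42 on its brightest probe set, of the _x_at type. Its probe sets ran from 0.32 to 1.45, so its place within 2-fold depends on the probe set. Of 12 measured genes of insulin and feeding signals, 1 was at least 2-fold higher (1.80% of all measured genes) and none lower (2.79%), and the median was 0.32. That gene was Irs2, an adaptor of the insulin receptor, with 117 in CR and 28.9 in AL, a difference of 2.02. The fasting hormone gene Fgf21 stood at 0.83 and Pik3r1, a regulatory subunit of PI3-kinase, at -0.69 (probe sets up to 0.14). Prkaa2 stood at -0.13 on its brightest probe set, with measured probe sets from -0.56 to 1.10.

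The labelled tissue carried its markers: all 7 hepatocyte markers with a probe set were above the limit in both pools. Their summed intensity was 47529.7 in CR and 49015 in AL, and none passed 2-fold on its brightest probe set. Ttr stood at -0.07 on its brightest, with measured probe sets down to -1.60. Muscle and fat are known to express Pdk4. Of 14 muscle markers 9 were below the limit on both arrays (among them Acta1, Myh1, Myh4 and Myh7), and the sum over the list was 111 in CR and 96.6 in AL. The 5 measured ones were Ttn at 0.61, Ckm at 0.33, Tnni2 at 0.29, Tnnt2 at 0.22 and Mb at -0.28, with a median of 0.29. Of 6 adipocyte markers 3 were below the limit on both arrays (Adipoq, Ucp1 and Cidec), with sums of 86.8 in CR and 85.5 in AL. The 3 measured ones were Lep at 0.21, Fabp4 at 0.03 and Retn at -0.03. Kupffer cell and macrophage markers summed to 2475 in CR and 2783 in AL, with a median of -0.54 and Cd68 below the limit on both arrays. On the brightest probe sets 9 of 10 measured genes were below 0, as were 6589 of all 12644 measured genes. The remaining one, C1qb, stood at 0.05, with measured probe sets from -1.25 to 0.12. Neutrophil and lymphocyte markers summed to 70.0 in CR and 138 in AL, with S100a8 at -2.29, S100a9 at -1.75, Cd3e at -0.30 and Nkg7 at 0.24, and the other 4 of 8 below the limit on both arrays. Endothelial markers summed to 545 in CR and 621 in AL, stellate markers to 1616 in CR and 1657 in AL, and cholangiocyte markers to 58.6 in CR and 59.2 in AL, with none past 2-fold. Erythroid markers summed to 18.1 in CR and 51.4 in AL, with Alas2 at -2.43 the only measured one of 3 (Hba-a1 and Slc4a1 were below the limit on both arrays). Acinar markers summed to 79.3 in CR and 138 in AL, with Cela1 at -1.41, Ctrb1 at 0.14 and Prss2 at 0.07, and the other 2 of 5 below the limit on both arrays. The part of these cell types in the member values was not tested. In whole liver RNA, fewer cells of a type and less RNA per cell cannot be told apart.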

How the data were processed

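Total RNA of 3 mice per diet was pooled, labelled with biotin and run on 1 Affymetrix array per pool, per the labels' protocols. The deposited intensity values were made by the authors with RMA (background correction, normalization between arrays and summary per probe set), per the submitters' processing notes. RMA usually gives log2 values, and the linear scale was read from the values. Not given in the sources used here are the RMA version and the array's genome build. Of 45101 probe sets, 34945 had 1 gene symbol in the platform annotation of the array, and those with several or none were left out.

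Differences were taken as log2 CR minus log2 AL. With 1 array per diet no test was possible, and 2-fold served as a rule of size. The intensity limit was the 50th percentile of all values. All members are named, and in each other list the genes past 2-fold or, where fewer than 3 were, the 3 farthest from 0. The 3 genes next to Pdk4 in the order of differences are named too. Mpc1, Pcx, Bckdk, Ppm1k, Lias and single markers were named for their function after their values were seen. Ppargc1a, Pck1, Ldhb, Prkaa2, Ttr and C1qb were named for the spread of their probe sets, likewise after their values were seen. The members, the lists and the alternatives were chosen with earlier results of these data known. The steps were tested on simulated data. Alternatives covered the choice of probe set, the limit, low values, scaling and the threshold. The work used pandas 2.3.3 and numpy 2.4.6 in Python 3.11.15, with statsmodels 0.14.6 for loess and matplotlib 3.10.9 for plots.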

Additional observations from a re-analysis of the deposited data

How the results depend on the processing

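The Pdk4 difference lay between 5.54 and 6.61 over 10 alternatives, at least 2-fold higher in each. Pdk4 has 1 probe set, above the limit on both arrays. The choices of probe set and limit, and raising low values to the limit, thus could not change its 6.58. The Pdk4 difference was 5.66 with a pseudocount of the median intensity. It was 5.54 after a shift by the hybridisation control spikes and 6.22 after a shift by the cre spikes alone, shifts too small to take it below 2-fold. Those 2 shifts, of 1.04 and 0.36, moved every gene alike and put the median measured gene at -1.06 and -0.38, so the order of the members did not change. After them the kinase median was 0.075 and 0.75, the phosphatase median 0.39 and 1.06, and the subunit median -1.16 and -0.48. After the shift by all spikes 1 member was at least 2-fold higher (Pdk4) and 2 lower (Dld and Pdhb), against 0.25% of measured genes higher and 56.9% lower. Pdk1 fell below 2-fold under both shifts, at 0.075 and 0.75. It also did so with the mean of all probe sets, 0.47, and without the _x_at, _s_at and _a_at types of probe set, 0.64, and these values were the kinase median there. Averaging took Dld to -0.93, which left 0 members at least 2-fold lower, against 2.02% of measured genes. Dlat stood at -0.05 without those types, against 0.39. With no intensity limit the kinase and phosphatase medians were 0.67 and 0.76. At 1.5-fold, 2 members were lower (Dld and Pdhb), against 9.49% of measured genes. Centring the arrays on their medians and removing a loess trend (span 0.4) kept the same 4 members past 2-fold. Raising low values to the limit and a stricter limit at an intensity of 21.0 could not change these 4. Both values of each exceed the limit, and at least 1 exceeds 21.0. No paired analysis was possible because there is 1 array per diet, and no replicate could be left out.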
